A study of Mus musculus with 8 samples.

Results

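mmu-miR-185, mmu-miR-218 and mmu-miR-582-5p are 3 mouse microRNAs (miRNAs) whose signal, scaled to the bright probes of each array, was lower in every obstructed kidney than in every contralateral kidney. They were chosen by that pattern, by their names in the scanner files, and are 3 of the 611 mouse miRNAs on the array and 3 of the 222 bright enough to be tested. Because the obstructed against contralateral contrast selected them, their differences in that contrast are given as a description, with no test. The label of a fall holds on the scaled signal only: before scaling between arrays the groups overlapped for all 3.

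The kidneys came from ICR mice, an outbred strain, in which the ureter of a single side was ligated for 7 days (unilateral ureteral obstruction, UUO), a surgical model of blocked urine outflow. The 4 control samples are the contralateral, unobstructed kidneys of operated animals, so they too come from mice with a ligated ureter, and sham-operated or untouched mice are not among them. The 4 UUO samples are obstructed kidneys. Every sample is whole kidney, so fewer cells of a type and less miRNA per cell cannot be told apart. The labels give no age or sex and do not state if same-numbered kidneys belong to 1 mouse, or that the kidneys of a group came from separate mice, so the spread between samples may be partly technical.

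A miRNA is a short RNA that guides Argonaute proteins to messenger RNAs by pairing through its seed, the bases near its 5′ end, and lowers the stability or translation of those messages. It is cut from a hairpin precursor whose arms can each yield a mature strand; usually a single strand accumulates and the other is degraded. miR-185 has been described as a repressor of the DNA methyltransferase DNMT1. miR-218 is made from a pair of genes that lie inside Slit2 and Slit3, which encode secreted ligands of Robo receptors, and Robo1 is a described target of it; Slit and Robo signalling helps place the ureteric bud in the developing kidney, and miR-218 itself is best known from motor neurons. miR-582 lies inside Pde4d, the gene of a phosphodiesterase that degrades cyclic AMP, and is less well described.

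The sequences below show which strands the array could tell apart, and are RefSeq's, on build GRCm38.p6, written 5′ to 3′ with the seed (bases 2 to 8) in capitals. Of 9 mature names looked for, 8 were found. mmu-miR-185-5p was not matched, so the precursor of miR-185 is shown, with its listed 3p strand in capitals.
mmu-miR-218-5p: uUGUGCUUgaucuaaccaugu
mmu-miR-218-1-3p: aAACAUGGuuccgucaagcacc
mmu-miR-218-2-3p: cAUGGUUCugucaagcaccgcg
mmu-miR-582-5p: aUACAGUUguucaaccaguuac
mmu-miR-582-3p: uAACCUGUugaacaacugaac
Mir185 precursor: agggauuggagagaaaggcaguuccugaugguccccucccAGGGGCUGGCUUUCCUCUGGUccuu
mmu-miR-882: aGGAGAGAguuagcgcauuagu

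mmu-miR-218-5p, the strand that the array calls mmu-miR-218, is encoded at chr5:48223966-48223986 (plus strand, within Slit2) and at chr11:35616840-35616860 (plus strand, within Slit3). The mature sequence from both genes is the same, so the array gives their sum and cannot tell the Slit2 copy from the Slit3 copy. The 3p strands of the genes differ in sequence and had probes of their own. mmu-miR-582-5p lies at chr13:109324753-109324774 (plus strand, within Pde4d). The precursor of miR-185 lies at chr16:18327401-18327465 (minus strand, within Tango2). All 4 precursors lie on the same strand as the gene around them. Whether they lie in introns or exons was not looked up, and the mRNAs of these genes were not measured.

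The seeds of miR-218 and miR-582-5p differ, and that of miR-185 was not compared. miR-882, which was listed as a relative of miR-185, has the seed GGAGAGA, and the same 7 bases stand at positions 8 to 14 of the miR-185 precursor. The RefSeq table holds 1 other mouse miRNA with the seed of miR-218, mmu-miR-7002-3p, and 0 with that of miR-582-5p.

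For miR-185, the array's brightest probes served as the yardstick: a scaled signal of 1 equals the 75th percentile of 371 bright probes, those above background on every array. miR-185 had scaled signals of 1.33, 0.953, 0.869 and 1.34 in contralateral kidneys 1 to 4. It had 0.437, 0.723, 0.493 and 0.378 in obstructed kidneys 1 to 4. The groups did not overlap, and obstructed kidney 2 was the nearest to the contralateral kidneys. On the log2 scale the mean was 0.14 ± 0.33 in contralateral and -1.02 ± 0.40 in obstructed kidneys (SD, n = 4 each), a difference of -1.16 (SE 0.25), or a 2.24-fold lower signal. The gap between the lowest contralateral and the highest obstructed array was 0.27 on the log2 scale, and 0.82 without obstructed kidney 2.

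miR-218 had scaled signals of 0.419, 0.406, 0.528 and 0.444 in contralateral kidneys 1 to 4. In obstructed kidneys 1 to 4 it had 0.294, 0.245, 0.285 and 0.253. The obstructed kidneys lay close together and below all contralateral kidneys, and contralateral kidney 3 was the highest. On the log2 scale the means were -1.16 ± 0.17 and -1.90 ± 0.13 (SD, n = 4 each), a difference of -0.73 (SE 0.14), or 1.66-fold. The gap between the groups was 0.46.

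miR-582-5p had scaled signals of 0.211, 0.205, 0.241 and 0.237 in contralateral kidneys 1 to 4. In obstructed kidneys 1 to 4 it had 0.132, 0.134, 0.145 and 0.113. Here too no obstructed kidney reached a contralateral one, and obstructed kidney 4 was the lowest. The log2 means were -2.17 ± 0.12 in contralateral and -2.94 ± 0.15 in obstructed kidneys (SD, n = 4 each), a difference of -0.77 (SE 0.13), or 1.71-fold, with a gap of 0.49.

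**Figure D1:**
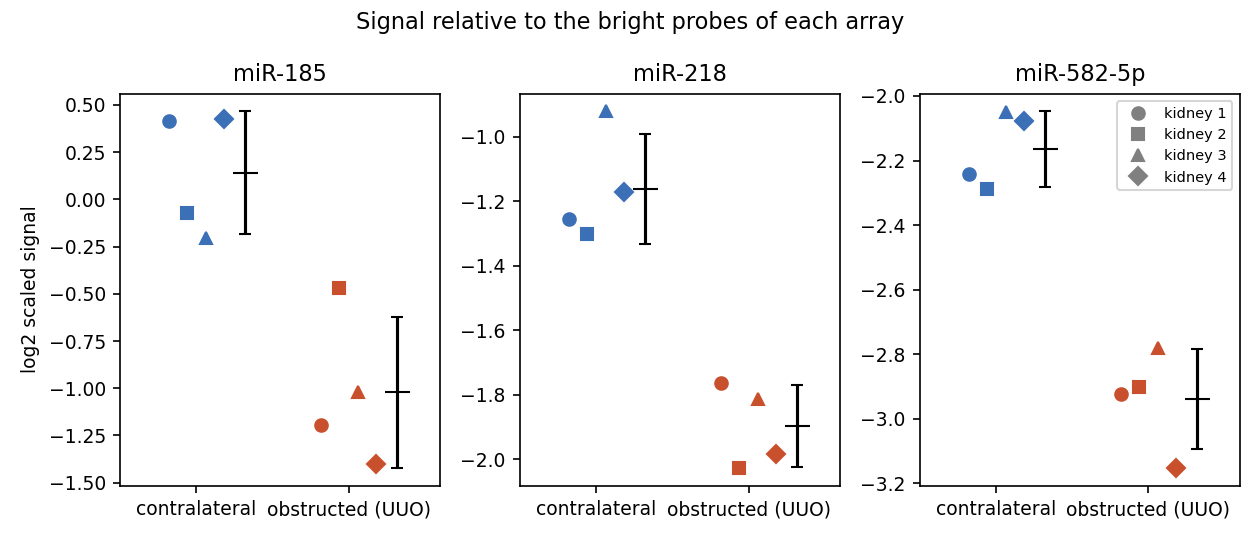
Log2 scaled signal (vertical axis, a separate range for each miRNA) of miR-185, miR-218 and miR-582-5p on 4 contralateral and 4 obstructed arrays; symbols mark the kidney number, bars beside the points the mean and SD. No obstructed array reaches a contralateral array in any panel, and the points of miR-185 are the most spread.

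By this criterion the members are 3 of 47 tested miRNAs, or 21.2% of the 222, with all obstructed arrays below all contralateral arrays; 51 (23.0%) did not overlap in either direction. limma, a linear model with a shared estimate of spread fitted to all 222, called 33 miRNAs (14.9%) at a Benjamini-Hochberg adjusted p under 0.05, 30 of them (13.5%) lower in obstructed kidneys, and the 3 members are among these 30. Since the same contrast chose them, nothing is read from either count. Among the 47, the gaps of miR-582-5p, miR-218 and miR-185 ranked 7, 9 and 17 from the largest. miR-193* and let-7a lay just inside the criterion, with gaps of 0.012 and 0.015 on the log2 scale. miR-30b and miR-331-3p lay just outside it, overlapping by 0.0049 and 0.0067.

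Before scaling between arrays, the pattern was not a fall. The unscaled signal of miR-218 was 215, 169, 292 and 258 in contralateral kidneys 1 to 4 and 203, 126, 399 and 403 in obstructed kidneys 1 to 4. Obstructed kidneys 3 and 4 thus had the highest miR-218 signals of all arrays and obstructed kidney 2 the lowest. The unscaled difference of log2 means was 0.15 (SE 0.49).

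miR-582-5p had unscaled signals of 108, 85.5, 133 and 138 in contralateral kidneys 1 to 4 and 90.9, 68.8, 204 and 179 in obstructed kidneys 1 to 4, a log2 difference of 0.11. Those of miR-185 were 684, 398, 480 and 781 in contralateral kidneys 1 to 4 and 301, 372, 692 and 603 in obstructed kidneys 1 to 4, a log2 difference of -0.28. Of the 3, miR-185 alone had a lower unscaled group mean, and its groups overlapped too.

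The arrays themselves differed in brightness. Their 75th percentile signal was 417 to 582 on the contralateral arrays and 514 to 1595 on the obstructed arrays, with the highest values on obstructed kidneys 3 and 4, at 1403 and 1595. The log2 difference of 0.88 had an exact permutation p of 0.0857, two-sided (n = 4 each), where the smallest possible is 0.0286. The number of miRNAs above background was 228 to 240 on contralateral and 243 to 310 on obstructed arrays, a difference in means of 40.2 (two-sided exact permutation test, p = 0.0286, n = 4 each). All 8 arrays were on 1 slide and in 1 scan. What part of this brightness came from the kidneys and what part from labelling was not tested, and a difference given here is relative to the bright probes of the same array.

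**Figure D2:**
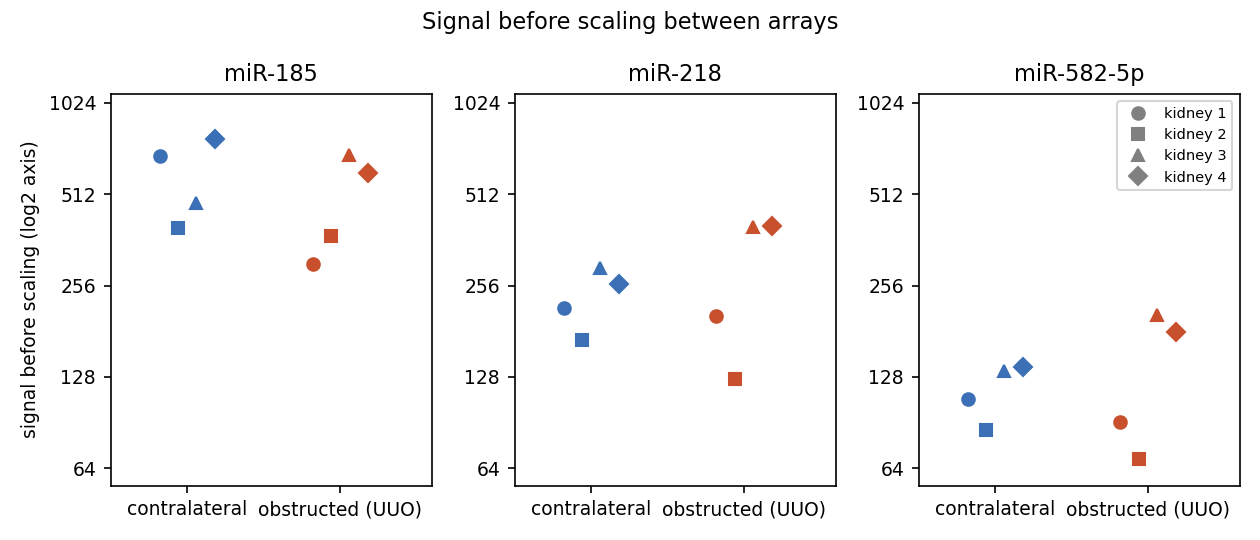
Signal before scaling (vertical axis, log2 spaced, the same range in each panel) of the 3 miRNAs on 4 contralateral and 4 obstructed arrays; symbols mark the kidney number. The groups overlap in every panel, and obstructed kidneys 3 and 4 are the brightest arrays for miR-218 and miR-582-5p.

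Against the other miRNAs of the same array, the members were lower whether or not arrays were scaled. The median log2 difference of all 222 tested miRNAs was -0.14 with scaling and 0.74 without. miR-185 lay 1.02 below it either way, miR-218 0.59 below and miR-582-5p 0.63 below, since a constant per array moves all miRNAs by about the same amount. The normexp background correction brought these distances down to 0.49, 0.27 and 0.41. When each array was centred on the median of its tested miRNAs, an alternative chosen after seeing the data, the differences were -1.05, -0.62 and -0.66 for miR-185, miR-218 and miR-582-5p. The groups then still did not overlap, with gaps of 0.36, 0.071 and 0.051. With the 75th percentile taken over all mouse probes, miR-218 and miR-582-5p overlapped between groups by 0.015 and 0.035, and miR-185 kept a gap of 0.45.

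Within single obstructed arrays the members ranked differently. Of the 222 tested miRNAs, those with a larger drop from their contralateral mean than miR-218 made up 3.15% in obstructed kidney 2 but 26.6%, 31.1% and 23.0% in kidneys 1, 3 and 4. miR-218 was 0.86 below its contralateral mean in kidney 2, its lowest value, and 0.60, 0.65 and 0.82 below in kidneys 1, 3 and 4. For miR-582-5p the shares were 19.4%, 6.31%, 33.3% and 17.1% in kidneys 1 to 4, with drops of 0.76, 0.74, 0.62 and 0.99. For miR-185 they were 6.76%, 12.6%, 14.9% and 6.31%, with drops of 1.34, 0.61, 1.16 and 1.54. The drop of miR-185 was thus smallest in kidney 2, where that of miR-218 was largest. The tested miRNAs as a whole were less spread in kidney 2, with a lower quartile of -0.44 and an upper quartile of 0.23, against -0.82 and 0.31 in kidney 3.

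**Figure D3:**
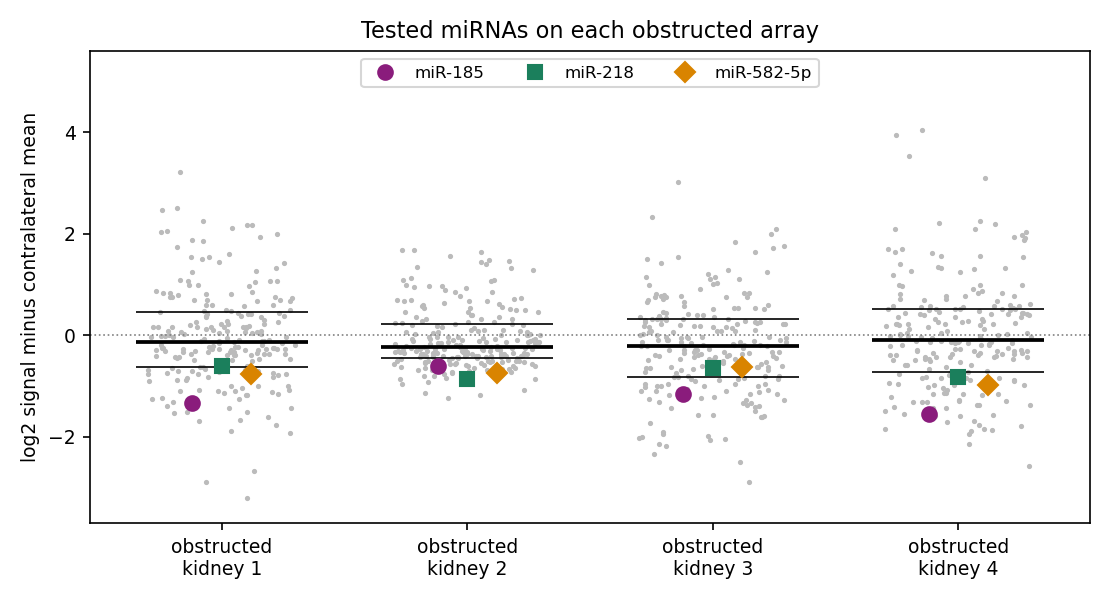
Log2 signal minus the contralateral mean (vertical axis) of each of the 222 tested miRNAs (grey points) on the 4 obstructed arrays; black lines mark the quartiles and median, large symbols the 3 miRNAs. miR-185 lies below the lower quartile in all 4 kidneys, and miR-218 and miR-582-5p lie above it in kidney 3 and below it in kidneys 2 and 4.

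Ratios between members on the same array do not depend on a scaling by 1 constant per array. The log2 ratio of miR-218 to miR-582-5p, set to 0 at the contralateral mean, was 0.040 ± 0.14 in obstructed kidneys (SD, n = 4), between -0.13 and 0.17, and the contralateral kidneys spanned -0.095 to 0.13. Both miRNAs therefore differed between the groups by nearly the same amount. The ratio of miR-185 to miR-218 was -0.43 ± 0.47 in obstructed kidneys (SD, n = 4), between -0.73 and 0.25, with contralateral kidneys between -0.58 and 0.37. That of miR-185 to miR-582-5p was -0.39 ± 0.34, between -0.58 and 0.13, with contralateral kidneys between -0.46 and 0.35. In both cases the groups overlapped, and whether miR-185 fell more than the other members was not tested. Against miR-582-5p the overlap came from obstructed kidney 2 alone, at 0.13, with kidneys 1, 3 and 4 at -0.58, -0.54 and -0.56. Against miR-218 it came from kidneys 2 and 3, at 0.25 and -0.51.

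Each member was read by 2 probes of 10 spots each, and both probes gave the same direction on the scaled signal. The brighter and dimmer probes of miR-185 differed by -1.12 and -1.28 between the groups on the log2 scale. For miR-218 the differences were -0.75 and -0.71, and for miR-582-5p -0.67 and -0.92. For all 6 probes no obstructed array reached a contralateral array, with gaps from 0.22 to 0.73. The members were chosen on the sum of these probes, of which each carried 27.8% to 72.2%, so this is a description and no support for a fall, and the second probe is not a further replicate of the kidneys.

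All 6 probes were above background on all 8 arrays, in every spot that was not marked as an outlier. The spot signal was 5.11 to 27.4 times the local background for the probes of miR-185. It was 3.72 to 13.3 times for miR-218 and 2.75 to 6.67 times for miR-582-5p, the closest to background. The probes of miR-218-1*, miR-218-2* and miR-582-3p, above background on no array, already lay at 1.27 to 1.73 times on this ratio. The spots of a member's probe varied with a coefficient of variation of 1.89% to 34.7% on an array. No member therefore entered the tested set through a single group.

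**Figure D4:**
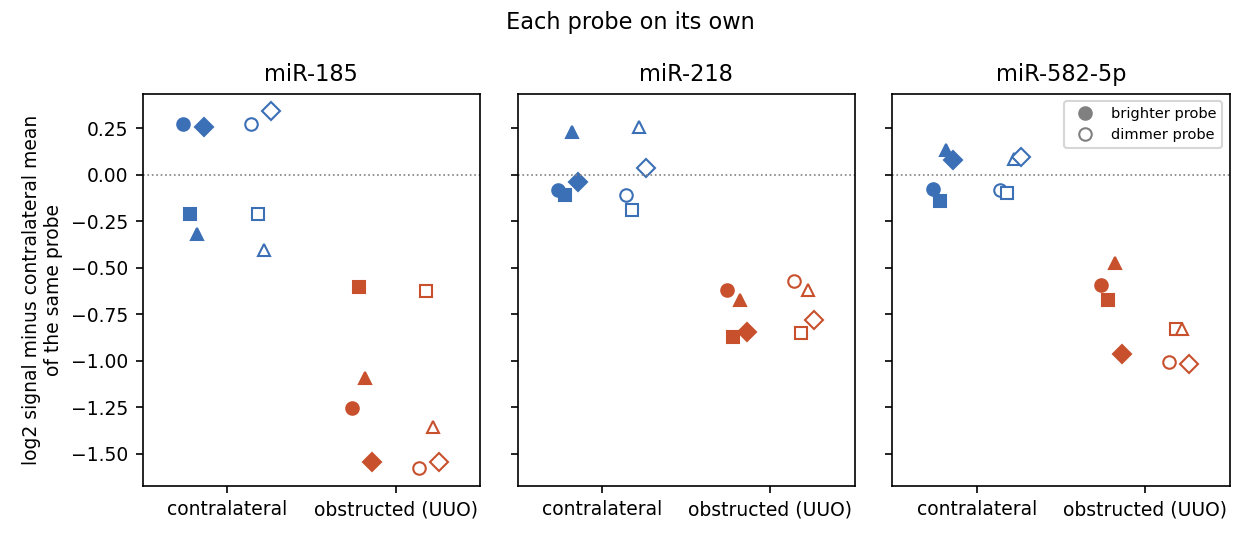
Log2 scaled signal minus the contralateral mean of the same probe (vertical axis) for the brighter (filled) and dimmer (open) probe of each miRNA; colours mark the group and symbols the kidney number. All obstructed points of every probe lie below all contralateral points of that probe.

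The arrays of each slide row held kidneys of both groups, kidneys 1 and 2 in row 1 and kidneys 3 and 4 in row 2, and the choice of members fixes that they are lower in each. Within row 1 the log2 differences were -1.0, -0.62 and -0.65 for miR-185, miR-218 and miR-582-5p. Within row 2 they were -1.32, -0.85 and -0.90. With 2 against 2 arrays in each row the rows were not compared by a test. With any 1 array left out, where the sign is fixed in the same way, the differences ranged from -1.35 to -1.03 for miR-185, from -0.78 to -0.65 for miR-218 and from -0.83 to -0.70 for miR-582-5p.

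**Figure D5:**
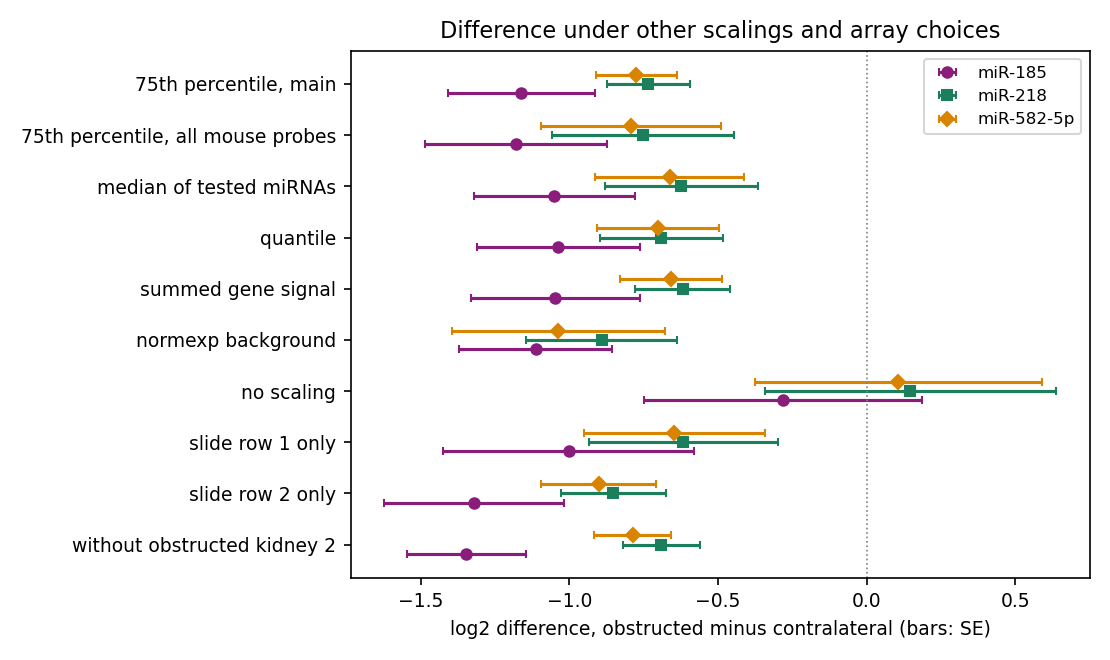
Log2 difference between obstructed and contralateral kidneys (horizontal axis; bars are the SE of the limma fit) of the 3 miRNAs under the main scaling, 5 other ways of scaling or background correction, no scaling, each slide row alone, and without obstructed kidney 2. All points lie below 0 except miR-218 and miR-582-5p without scaling, at 0.15 and 0.11.

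The opposite strands of the precursors gave no value to set beside the members. miR-218-1*, the 3p strand of the Slit2 gene, miR-218-2*, that of the Slit3 gene, and miR-582-3p were above background on 0 of 8 arrays, with 4 probes each, and were not tested. So the Slit2 and Slit3 copies could not be told apart by their 3p strands either. No probes named mmu-miR-185* or mmu-miR-1306 were used here; miR-1306 lies within Dgcr8, a gene on the same chromosome as miR-185 whose product helps cut miRNA precursors. miR-882 was above background on 3 of 4 contralateral and 3 of 4 obstructed arrays, through 1 of its 4 probes, and was not tested. Its scaled signal lay between the floor of 0.0213 and 0.0571 in contralateral kidneys and between the floor and 0.125 in obstructed kidneys, highest in kidney 2, so the groups overlapped.

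The tested miRNAs whose 8 array values lay nearest to those of a member, after each was set to 0 at its contralateral mean, were found by the root mean square difference on the log2 scale. For miR-582-5p they were miR-26b at 0.092, let-7g at 0.13 and miR-484 at 0.13, against a median of 0.70 over the 219 miRNAs outside the members. For miR-218 they were miR-26b at 0.14, miR-484 at 0.16 and miR-429 at 0.17 (median 0.67), and miR-582-5p itself lay at 0.11. For miR-185 they were miR-29c* at 0.17, miR-29c at 0.19 and miR-192 at 0.19 (median 0.91), nearer than miR-582-5p at 0.41 and miR-218 at 0.49. miR-185 therefore had its nearest profiles outside the other members. miR-218 and miR-582-5p lay close to each other, at 0.11, but miR-26b was nearer still to miR-582-5p, at 0.092.

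These neighbours were lower in obstructed kidneys too, by the way they were found. miR-26b differed by -0.72, with obstructed arrays between -0.94 and -0.56, and miR-29c by -1.09, between -1.32 and -0.69. miR-192 is abundant in kidney tubules, miR-29c belongs to a family known to target collagen messages, and miR-429 belongs to the epithelial miR-200 family. None of the 7 neighbours shared a seed with miR-218 or miR-582-5p in the RefSeq table. The seed of miR-26b, the nearest to both, is UCAAGUA.

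The 6 listed markers of kidney tubule epithelium were present on all arrays, and their summed signal was lower in obstructed kidneys. Of the miR-200 family outside this list, miR-429 had a log2 difference of -0.60, but miR-200c and miR-141 were not lower, at 0.15 and 0.14. The summed scaled signal of miR-192, miR-194, miR-200a, miR-200b, miR-30a and miR-30e was 48.2 to 51.0 in contralateral and 19.8 to 37.3 in obstructed kidneys, highest of these in kidney 2, where the drop of miR-185 was smallest but that of miR-218 was largest. limma called 5 of the 6 lower at an adjusted p under 0.05, with a median log2 difference of -1.06, where 13.5% of all tested miRNAs were called lower. The list was drawn up with earlier results of these data known, so nothing is read from that count. None of these calls stood under the settings in which limma called 0 miRNAs, among them scaling over all mouse probes (56 at an unadjusted p under 0.05), normexp (54), the replicate block (67), and dropping any of 5 single arrays, those of contralateral kidneys 1, 3 and 4 and of obstructed kidneys 1 and 3 (54 to 67). The sum of 6 leukocyte markers was 1.41 to 1.94 in contralateral and 1.34 to 6.55 in obstructed kidneys, lowest in kidney 2, and limma called 0 of the 4 tested (3 at an unadjusted p under 0.05, median log2 difference 1.40).

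Among 6 neural miRNAs, listed because miR-218 is known from motor neurons, miR-124, miR-137 and miR-138 were above background on 0 of 8 arrays. The sum of this list was 0.333 to 0.381 in contralateral and 0.236 to 0.332 in obstructed kidneys, and limma called 0 of 3 tested members (0 at an unadjusted p under 0.05), with a median log2 difference of -0.27. The sums of the 2 endothelial miRNAs (12.1 to 15.2 and 9.57 to 13.2), of the 2 smooth muscle miRNAs (1.19 to 1.5 and 0.917 to 1.95), of the 3 erythroid miRNAs (5.15 to 44.6 and 5.14 to 24.4) and of the 4 striated muscle miRNAs (0.0355 to 0.111 and 0.0254 to 0.0805) overlapped between contralateral and obstructed kidneys. Of these lists, limma called 1 member lower, an endothelial miRNA, and a striated muscle miRNA had an unadjusted p under 0.05 without being called. The median log2 difference over all 222 tested miRNAs was -0.14. The part of tubule loss or leukocyte gain in the members' differences was not tested.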

How the data were processed

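miRNAs of 8 kidneys were measured on 1-colour Agilent mouse arrays from 100 ng of total RNA. The deposited spot intensity values came from Agilent Feature Extraction (10.7.3.1 per the file headers, 10.1.1 per the submitters' processing notes), background-subtracted and unscaled. The series matrix held the same values. Outliers and signal above background were read from marks of 0 or 1 per spot. The median signal and local background of each spot gave the normexp setting and the ratios to local background. The scanner software's summed gene signal gave the setting of that name. Here outlier spots were left out, spots of a probe averaged, arrays divided by their 75th percentile over 371 probes above background on all arrays, probes of a miRNA summed, a floor of 0.0213 set and log2 taken. Above background on all 4 arrays of a group were 222 miRNAs, tested with limma 3.58.1 in R 4.3.3. The fit was checked on simulated data with independent noise for each miRNA and array. That check left out deviations shared by the miRNAs of an array, so it does not cover them. Figures used matplotlib 3.10.9. Array number and signal limit the precision. Names are the array's and can be old.

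Members and lists were chosen with earlier results of these data known. Named miRNAs are the members, listed partner strands and same-seed or neighbouring miRNAs, the 3 nearest profiles per member, the 2 miRNAs on each side of the criterion and listed markers. Alternatives covered scaling, background correction, probe summary, outliers, floor, filter, blocks, slide rows and leaving out arrays. The labels state no pairing, so the main fit had no block. Deviations from group means of same-numbered arrays correlated at -0.35, 0.22, 0.62 and 0.015. So few values cannot show if same-numbered kidneys came from the same mouse.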

Additional observations from a re-analysis of the deposited data

How the results depend on the processing

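The members' differences kept their sign in every setting tried except without scaling. In the slide rows, with a block or with an array left out, the choice of members fixed that sign. Without scaling, miR-218 and miR-582-5p turned to 0.15 and 0.11 (0.14 and 0.11 from the unscaled series matrix) and miR-185 moved to -0.28 with either. With normexp, miR-218 moved to -0.89 and miR-582-5p to -1.04, while the median of all tested miRNAs moved from -0.14 to -0.62. Relative to that median the 2 members thus lay closer than in the main setting, at 0.27 and 0.41 below it against 0.59 and 0.63. In the 10 scaled signal settings miR-185 lay between -1.20 and -1.04.

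The number of miRNAs called by limma, 33, was 0 with scaling over all mouse probes (56 at an unadjusted p under 0.05), with normexp (54) and with the median of the tested miRNAs (56), and 3 without scaling, with the unscaled series matrix, with quantile normalization and with the summed gene signal. Without scaling and with the series matrix all 3 were higher in obstructed kidneys. Quantile normalization gave 1 higher and 2 lower, and the summed gene signal 2 higher and 1 lower. The replicate block, which treats same-numbered kidneys as pairs, also gave 0 calls (67 at an unadjusted p under 0.05). Whether the numbers pair the kidneys is not known. With each number on 1 array per group, such a block cannot change a difference of means, only its SE. For miR-185 the SE went from 0.25 to 0.29. limma called 17 without a filter, 0 in slide row 1 (1 at an unadjusted p under 0.05) and 69 in slide row 2. Leaving out 1 array gave 0 to 113 calls: 0 for contralateral kidney 1, 3 or 4 and for obstructed kidney 1 or 3 (unadjusted p under 0.05 for 54 to 67), 20 when contralateral kidney 2 was dropped, 14 for obstructed kidney 4 and 113 for obstructed kidney 2.

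The number with groups not overlapping, 51, was 30 with scaling over all mouse probes and 28 with the median of the tested miRNAs. It was 12 without scaling and 11 with the series matrix. The count was 69 in slide row 1, 162 in slide row 2, and 51 to 125 when 1 array was left out, 125 without obstructed kidney 2. With fewer arrays the groups separate more easily, and leaving out an array cannot lower this count. Counts from a slide row or with an array left out are therefore not comparable with 51. The cause of the other changes was not tested.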
